A study of Homo sapiens with 16 samples.

Results

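The 10 long noncoding RNAs described here are MALAT1, NEAT1, TUG1, KCNQ1OT1, OIP5-AS1, FTX, JPX, PVT1, DLEU2 and H19, picked by name from the 23709 genes of the deposited files, of which 5063 carry accessions of noncoding transcripts. All 10 have an entry in each of the 16 libraries, and the questions put to them were how each divides between nucleus and cytosol, and how much of each is found in the ribosome fraction. The study compared 2 cell lines with raised or lowered FLII, a gelsolin-family protein that remodels actin and also acts in the nucleus. H1299 cells, from a non-small cell lung carcinoma, were transfected with an empty Flag plasmid (H1299 vector) or with the same plasmid carrying Flag-tagged FLII (H1299 FLII), in both cases from a CMV promoter. HBE, a lung epithelial line, was transduced with lentivirus carrying a control sequence (HBE NC) or a short hairpin against FLII (HBE shFLII). From each of these 4 groups came 1 library of total mRNA, 1 of cytosol RNA, 1 of nuclear RNA and 1 of RNA from pelleted ribosomes (RNC, ribosome-nascent chain complexes), all of polyA RNA from cells at passage 15 to 18.

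Many long noncoding RNAs are spliced, capped and tailed like mRNA, yet stay where they are made. MALAT1 sits in nuclear speckles beside splicing factors, and NEAT1 is the scaffold of the paraspeckles. KCNQ1OT1 and H19 are imprinted RNAs of the same chromosome arm, and KCNQ1OT1 silences its neighbours in cis. FTX and JPX lie next to each other in the X inactivation centre. PVT1 is a neighbour of MYC, DLEU2 carries the precursors of miR-15a and miR-16, OIP5-AS1 (also called Cyrano) is known as a mostly cytoplasmic RNA, and TUG1 is found in both compartments.

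Each group has 1 library, so no difference below has a replicate check and no p-values are given. A level is given in RPKM, reads scaled to the length of the transcript and the total of the library. A fold is given on the log2 scale from read counts after TMM scaling of the pair, with a 95% interval (exact Clopper-Pearson) in parentheses. It was called when the fold reached 2 in either direction and the interval excluded no difference, among genes whose reads summed to 20 or more in the pair. Intervals cover counting error only. All values are shares of a library, so a ratio of fractions is not a ratio of molecules per cell. Less RNA per cell and fewer cells holding the RNA cannot be told apart in bulk libraries.

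Library totals were 5943676 to 8344359 reads in mRNA, 5914489 to 9259569 in cytosol, 6295282 to 8201848 in nuclear RNA and 26711771 to 38514467 in RNC. FLII was higher in H1299 FLII than in vector by 1.66 to 2.14 on the log2 scale, and in HBE shFLII it fell by 2.58 to 2.98, over mRNA, cytosol and nuclear RNA. The RNC libraries went against their labels: FLII was lower in the library labelled H1299 FLII, with a log2 fold of −4.21, and 0.07 in the library labelled HBE shFLII. Summed RPKM of 25 epithelial markers was 115 to 274 in the 6 other H1299 libraries and 6017 to 12019 in the 6 other HBE libraries. In RNC it was 227 in the library labelled H1299 vector, 8716 in that labelled H1299 FLII, 8219 in that labelled HBE NC and 536 in that labelled HBE shFLII. For 10 mesenchymal markers the sum was 709 to 2997 in those 6 H1299 libraries and 27.9 to 129 in those 6 HBE libraries. In RNC it was 131, 121, 547 and 297 in the same order, so no RNC library lay within the mesenchymal range of its labelled line. VIM, an intermediate filament gene, had 204 RPKM in the library labelled HBE NC and 143 in that labelled HBE shFLII, against 0.685 to 2.91 in the 6 other HBE libraries. RNC results, those of the control labels included, are therefore given by label and set apart from the other 12 libraries.

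Libraries were made from polyA RNA, so the 3′ ends of the transcripts bear on what was captured. The 10 accessions of the files were matched to GENCODE v29 transcripts of build GRCh38, and 8 of the 10 hold AATAAA or ATTAAA within the last 50 bases, against 30.1% of 55338 long noncoding transcripts of at least 200 bases. The 2 without either motif are NEAT1 and KCNQ1OT1. The matched transcripts of some RNAs differ in length from the files, so the end examined may not be that of the counted sequence: 3524 against 3735 bases for NEAT1, 7469 against 7104 for TUG1, 3068 against 2768 for DLEU2, 2348 against 2308 for H19, 1692 against 1670 for JPX and 8829 against 1894 for OIP5-AS1. MALAT1 is known for an end that is cut rather than tailed: a small RNA shaped like a tRNA is cleaved off behind a genomic run of A, which folds back on U-rich stretches. That stretch is shown because it marks where a mature MALAT1 can be caught by oligo(dT), from the only exon of the transcript at chr11:65506038-65506185, plus strand, GRCh38, with the run of A in capitals.

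MALAT1: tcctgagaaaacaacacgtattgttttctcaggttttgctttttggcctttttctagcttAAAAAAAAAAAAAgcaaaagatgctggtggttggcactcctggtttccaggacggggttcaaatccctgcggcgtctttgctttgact

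The run of 13 A ends 359 bases before the end of the annotated transcript. Runs of A of at least 13 are found in 2.86% of long noncoding transcripts, and 4 of the 10 RNAs hold one. The median length was 624 bases for those long noncoding transcripts and 3296 for the matched transcripts of the 10 RNAs. MALAT1, TUG1, KCNQ1OT1 and OIP5-AS1, which hold such a run, have the longest matched transcripts of the 10. The part of length in this contrast was not tested. The longest run was 18 in TUG1 and 29 in both KCNQ1OT1 and OIP5-AS1, and 5 in NEAT1, FTX and H19. For OIP5-AS1 and TUG1 the run may lie outside the sequence the authors counted.

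DLEU2, FTX and H19 are also hosts of microRNAs on their own strand. PVT1 was left out of this search, so nothing is said here of microRNAs within it. Mature sequences from DLEU2, FTX and H19 are shown with the seed (bases 2 to 8) in capitals, from RefSeq on GRCh38.p14. The DLEU2 pair lies at chr13:50049167-50049188 (miR-15a-5p) and chr13:50049027-50049048 (miR-16-5p), minus strand, and shares a single seed. The FTX microRNAs lie at chrX:74218392-74218414 (miR-421) and chrX:74218587-74218608 (miR-374b-5p), minus strand. The H19 microRNA lies at chr11:1996800-1996822 (miR-675-5p), minus strand.

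miR-15a-5p: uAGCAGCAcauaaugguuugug
miR-16-5p: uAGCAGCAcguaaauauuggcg
miR-421: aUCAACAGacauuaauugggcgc
miR-374b-5p: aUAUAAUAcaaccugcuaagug
miR-675-5p: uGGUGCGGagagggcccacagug

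Mature microRNAs are not captured by a polyA mRNA library. The files list entries for 7 of the precursors, and over all 16 libraries MIR16-1 had 1 read while MIR15A, MIR675, MIR421, MIR374A, MIR374B and MIR545 had 0. The levels below are therefore those of the host transcripts.

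**Figure D1:**
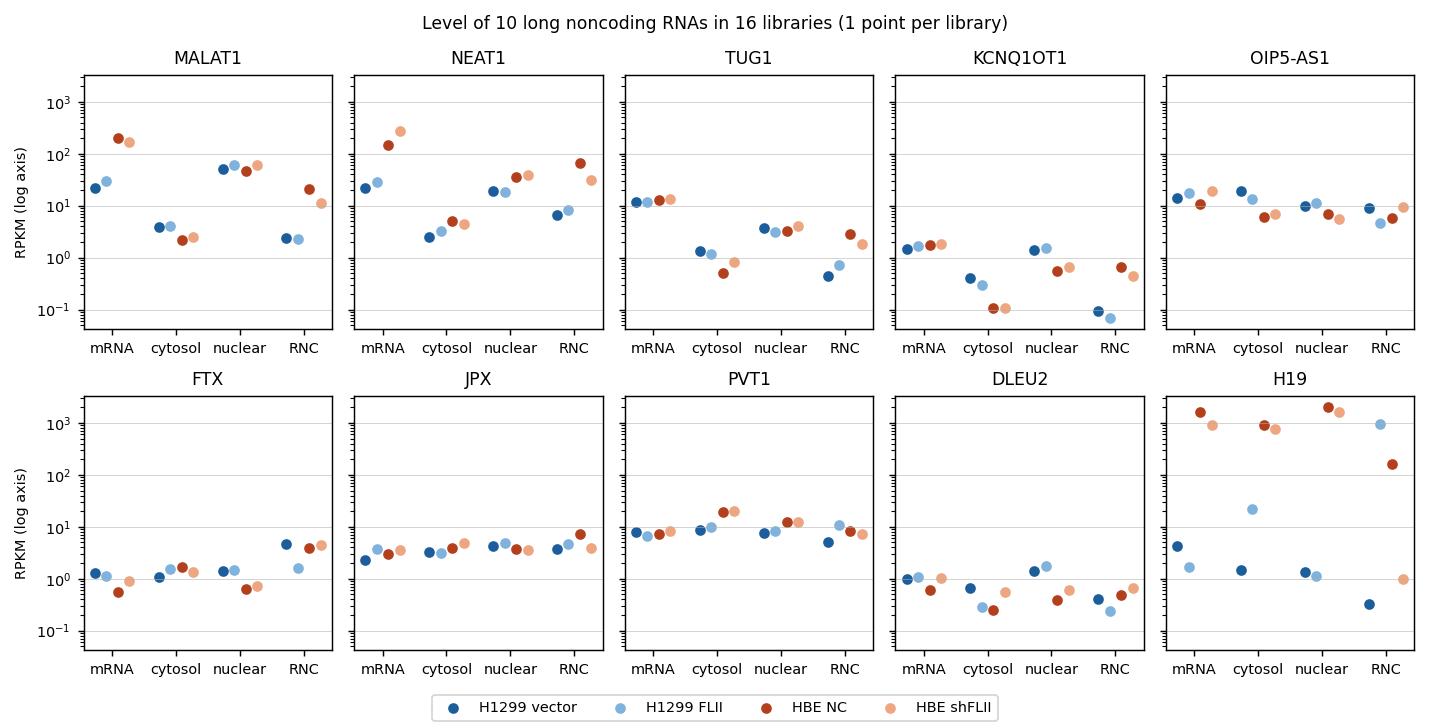
Level of each RNA in RPKM (log axis) in 16 libraries, by fraction (mRNA, cytosol, nuclear, RNC) and coloured by group, 1 point per library. MALAT1 lies between 46.7 and 61.4 in the 4 nuclear libraries and between 2.19 and 4.08 in cytosol, while H19 separates the lines by more than any other RNA shown.

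MALAT1 was the most nuclear of the 10 RNAs by this ratio in every group. Its level was 49.8 RPKM in nuclear and 3.89 in cytosol RNA of H1299 vector, and 61.4 and 4.08 in H1299 FLII. It was 46.7 and 2.19 in HBE NC, and 60.2 and 2.49 in HBE shFLII. All 4 nuclear values were thus above all 4 cytosol values. The log2 fold of nuclear over cytosol was 3.35 (3.18 to 3.52), 3.36 (3.17 to 3.57), 3.87 (3.60 to 4.16) and 4.03 (3.79 to 4.29), in the order H1299 vector, H1299 FLII, HBE NC, HBE shFLII, which is kept for sets of 4 values below. In H1299 vector this placed MALAT1 above 99.8% of the genes tested, and in HBE NC above 99.6%.

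NEAT1, as annotated in the files by its short form of 3735 bases, was the next most nuclear. Nuclear levels were 18.9, 18.6, 35.7 and 38.4 RPKM, against 2.54, 3.22, 5.02 and 4.51 in cytosol. Again the fractions did not overlap, and both were higher in HBE than in H1299. The log2 folds were 2.56 (2.23 to 2.91), 1.98 (1.63 to 2.36), 2.28 (2.00 to 2.58) and 2.53 (2.25 to 2.83). The short and long forms of NEAT1 cannot be told apart in these counts.

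KCNQ1OT1, which is unspliced and stated at 91671 bases, was called higher in the nucleus of all 4 groups as well. Its level per kilobase was low: 1.39, 1.51, 0.547 and 0.664 RPKM in nuclear RNA and 0.409, 0.301, 0.109 and 0.109 in cytosol, from 368 to 892 and from 59 to 347 reads. The log2 folds were 1.44 (1.26 to 1.63), 1.79 (1.55 to 2.03), 1.79 (1.39 to 2.21) and 2.04 (1.67 to 2.44). It overlaps exons of KCNQ1, the potassium channel gene on the opposite strand, and the kit is not stated to keep strand. KCNQ1 itself had at most 6 reads in each of the 12 libraries outside RNC.

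TUG1 had nuclear levels of 3.80, 3.06, 3.22 and 4.05 RPKM and cytosol levels of 1.32, 1.17, 0.50 and 0.834. Its log2 folds were 1.19 (0.81 to 1.59), 0.84 (0.37 to 1.33), 2.13 (1.49 to 2.88) and 1.71 (1.23 to 2.25), called in 3 of 4 groups. Scaled by total counts, the fold in H1299 FLII was 1.38 and was called too.

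MALAT1, NEAT1 and KCNQ1OT1 were thus called higher in all 4 groups, 3 of the 9 members tested in each, where 8.41% of 10779 genes were. None of the 9 was called lower in all 4, against 9.20% of genes. By group, 4 members were called higher each time, against 14.8%, 17.9%, 22.8% and 23.9% of genes. The median over the members was 0.40, 0.48, 0.58 and 0.10, against −0.00, 0.05, 0.14 and 0.18 over all genes. Scaling by total counts raised the median of all genes by 0.33, 0.54, 0.53 and 0.55, and the shares called then were 23.4%, 34.5%, 38.8% and 40.6% higher and 5.59%, 6.65%, 5.16% and 5.80% lower. Under that scaling TUG1 joined these 3 as higher in all 4 groups.

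**Figure D2:**
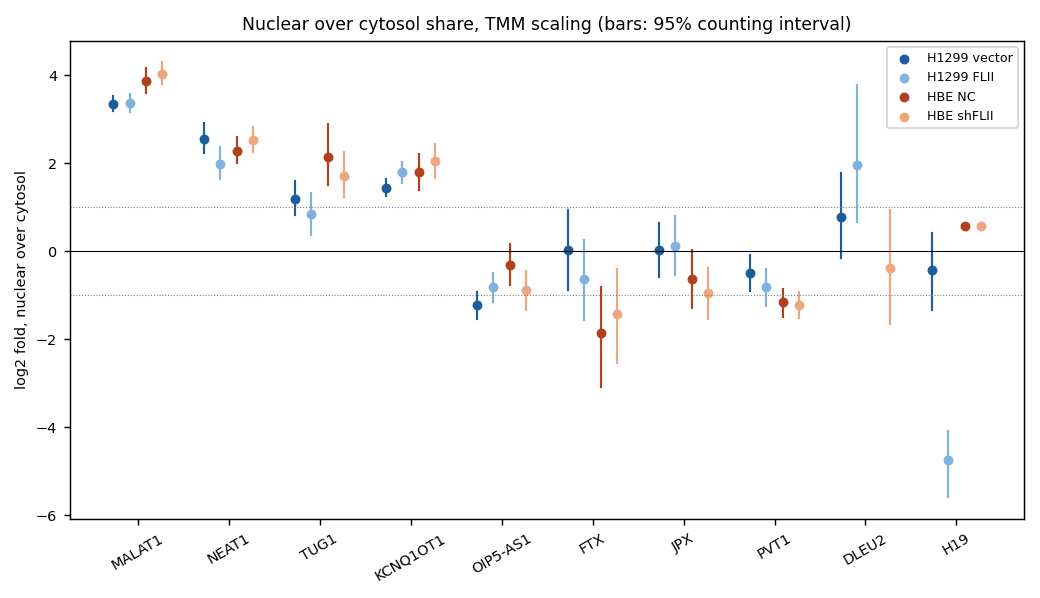
Log2 fold of nuclear over cytosol for each RNA in the 4 groups (points) with its 95% counting interval (bars); dotted lines mark a fold of 2, and DLEU2 in HBE NC is left out for having 12 reads. MALAT1, NEAT1 and KCNQ1OT1 lie above 1 in all 4 groups, and H19 in H1299 FLII stands alone at −4.74.

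Transcript length moved with this ratio. Genes over 5 kb, the class of MALAT1, TUG1 and KCNQ1OT1, had median log2 folds of nuclear over cytosol of 0.40, 0.56, 0.77 and 0.76. Genes under 2 kb, the class of OIP5-AS1, JPX and PVT1, had −0.38, −0.55, −0.48 and −0.52. Of the genes over 5 kb, 24.5%, 29.9%, 39.6% and 40.1% were called higher. MALAT1, TUG1 and KCNQ1OT1 lay above their class median in each group, as did NEAT1 in the class of 2 to 5 kb, with medians of −0.00, 0.06, 0.14 and 0.18. The part of length in these ratios was not tested.

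OIP5-AS1, PVT1 and FTX were each called lower in the nucleus in at least 1 group, as was H19 in H1299 FLII. OIP5-AS1 had 18.8, 13.7, 5.98 and 6.98 RPKM in cytosol and 10.1, 11.2, 6.98 and 5.54 in nuclear RNA. Its log2 folds were −1.23 (−1.54 to −0.92), −0.83, −0.31 and −0.89, below 0 in all 4 groups and called only in H1299 vector. Scaled by total counts the values were −0.90, −0.28, 0.22 and −0.33 and no group was called, so its side of 0 depends on the scaling in HBE NC only. OIP5, on the opposite strand, overlaps only an intron of the matched transcript.

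PVT1 had 8.58, 10.1, 18.9 and 19.8 RPKM in cytosol and 7.67, 8.32, 12.2 and 12.6 in nuclear RNA. It was called lower in the nucleus in HBE NC, at −1.17 (−1.49 to −0.86), and in HBE shFLII, at −1.22 (−1.51 to −0.93). In H1299 it was −0.49 and −0.82. Under total counts the HBE values were −0.63 and −0.66 and were not called. FTX had 1.10, 1.56, 1.65 and 1.35 RPKM in cytosol against 1.42, 1.45, 0.637 and 0.725 in nuclear RNA, from 11 to 24 reads a library. Its log2 fold was −1.85 (−3.10 to −0.82) in HBE NC and −1.42 (−2.55 to −0.42) in HBE shFLII, both called, and 0.04 and −0.64 in H1299. Under total counts the value in HBE shFLII was −0.88 and was not called. By group 1, 1, 2 and 2 members were called lower, against 12.7%, 18.3%, 17.0% and 17.6% of genes.

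JPX, an activator of XIST, was not called in any group, with log2 folds of 0.02, 0.11, −0.64 and −0.95. Its level stayed within 2.32 and 7.34 RPKM over all 16 libraries, the smallest ratio of highest to lowest level among the 10. FTX and JPX overlap in exons on opposite strands, so reads of the shared part cannot be assigned without strand. DLEU2 rested on 4 to 31 reads in cytosol and nuclear RNA. It was called higher in the nucleus in H1299 FLII, with 31 against 5 reads and a log2 fold of 1.96 (0.67 to 3.77), and differed by 0.77 in H1299 vector with an interval that includes 0. Under total counts that value was 1.09 and was called. TRIM13, on the opposite strand, overlaps an exon of the matched DLEU2 transcript, so reads of the shared part cannot be assigned without strand. In H1299 FLII TRIM13 had 78 nuclear and 19 cytosol reads.

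Genes that build the same nuclear bodies were looked at beside their RNAs. Of 19 mRNAs for paraspeckle proteins, 6, 3, 13 and 13 were called higher in nuclear RNA and 0, 1, 0 and 0 lower, where 14.8%, 17.9%, 22.8% and 23.9% of all genes were higher and 12.7%, 18.3%, 17.0% and 17.6% lower. In H1299 FLII the share of the list was near that of all genes. Those higher included SFPQ at 1.27 in H1299 FLII and 1.73 in HBE NC, and TAF15 at 1.52 in H1299 vector and 1.94 in HBE NC. SFPQ is a core paraspeckle protein that binds NEAT1. Of 20 mRNAs for nuclear speckle proteins, 8, 8, 11 and 11 were higher and 0, 2, 1 and 1 lower, led in HBE NC by SON, a speckle scaffold, at 3.43. Of 19 abundant cytosolic mRNAs, 4, 9, 10 and 10 were lower and 0, 0, 2 and 2 higher, led by FTL, a ferritin chain, at −2.87, −3.08, −3.26 and −3.37. Of 33 other long noncoding RNAs in the files, 4 of 21, 3 of 19, 2 of 17 and 3 of 20 tested were higher, shares near or below those of all genes. Of the same RNAs 4, 9, 6 and 6 were lower, shares above the 12.7%, 18.3%, 17.0% and 17.6% of all genes. BCYRN1, a dendritic RNA that binds translation factors, was lower in each group, at −2.79, −2.93, −3.31 and −3.57, and MIR17HG, the host of a microRNA cluster, was higher in H1299 vector at 2.33 and in H1299 FLII at 3.19.

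In the mRNA libraries, whose labels name no fraction, MALAT1 stood at 21.9, 29.3, 205 and 172 RPKM and NEAT1 at 21.9, 29.1, 147 and 278. In HBE these exceed both fractions of the same group, as did 55.6% of 12935 genes in HBE NC and 57.4% of 13068 in HBE shFLII. Of the 10 members, 6 did so in each. MALAT1, NEAT1, TUG1 and KCNQ1OT1 were each called lower in nuclear and in cytosol RNA than in the mRNA library of HBE NC, as were 16.9% of genes, and likewise in HBE shFLII, at 16.9%. In HBE NC nuclear RNA alone these 4 were the members called lower, against 19.7% of genes. For MALAT1 in HBE NC the log2 fold was −1.84 (−1.90 to −1.79) in nuclear and −5.75 (−6.03 to −5.49) in cytosol RNA. TUG1 was the 1 member lower in both fractions of H1299 vector (12.8% of genes) and H1299 FLII (14.1%), and its mRNA level was 11.8, 11.8, 12.6 and 13.6 RPKM.

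MALAT1 in H1299 differed from this: nuclear over mRNA was 1.57 (1.47 to 1.67) in vector and 1.32 (1.24 to 1.40) with FLII. KCNQ1OT1 was 0.28 and 0.09 in H1299, against −1.37 and −1.13 in HBE. Genes over 5 kb had medians of −0.63, −0.65, −0.88 and −0.86 for nuclear over mRNA and of −1.02, −1.27, −1.79 and −1.76 for cytosol over mRNA. Across genes, Spearman's rho of length with cytosol over mRNA was −0.53 to −0.58, a description over genes that share libraries. Whether length sets the position of the 4 RNAs was not tested.

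The lines differed most in H19, an imprinted RNA expressed from the maternal copy and abundant in fetal tissue. In HBE it had 1598 and 898 RPKM in mRNA, 926 and 755 in cytosol, and 2010 and 1652 in nuclear RNA, NC before shFLII. In H1299 it had 4.23 and 1.71 in mRNA, 1.50 and 21.7 in cytosol, and 1.38 and 1.14 in nuclear RNA, vector before FLII. The lines did not overlap in any of these fractions, and the highest H1299 value was that of H1299 FLII cytosol. HBE NC exceeded H1299 vector by 8.82 (8.46 to 9.23) in mRNA, 9.71 (9.24 to 10.29) in cytosol and 10.72 (10.13 to 11.47) in nuclear RNA. These folds lay above 99.7%, 99.7% and 99.9% of the genes tested.

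IGF2, the growth factor gene beside H19 that is expressed from the paternal copy and shares its enhancers, ran the other way. It had 1.53, 4.56 and 11.4 RPKM in mRNA, cytosol and nuclear RNA of H1299 vector, and 0.0702, 0.0327 and 0.0528 in HBE NC, from 3 reads or fewer. HBE NC over H1299 vector was −3.96 (−6.51 to −2.55), −6.26 (−11.96 to −4.16) and −7.20 (−10.56 to −5.65). The 300 bases of the H19 promoter round its start, at chr11:2001217-2001516, minus strand, GRCh38.p14, is shown with each CpG in capitals, because methylation of this imprinted gene acts at CpG.

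H19: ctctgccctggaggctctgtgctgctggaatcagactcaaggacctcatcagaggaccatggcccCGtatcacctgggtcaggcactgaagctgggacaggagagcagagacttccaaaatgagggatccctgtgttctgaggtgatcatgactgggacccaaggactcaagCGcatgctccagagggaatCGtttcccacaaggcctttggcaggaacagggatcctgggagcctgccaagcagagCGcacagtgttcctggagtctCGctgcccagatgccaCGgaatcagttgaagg

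It holds 6 CpG, and 63.2% of the 35116 promoters of the same length hold more. RefSeq gave promoters for 7 of the 10 RNAs. The others held from 14 CpG at a start of MALAT1 to 37 at another start of the same gene, so H19 was the poorest in CpG of the 7. Methylation was not measured in this study.

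**Figure D3:**
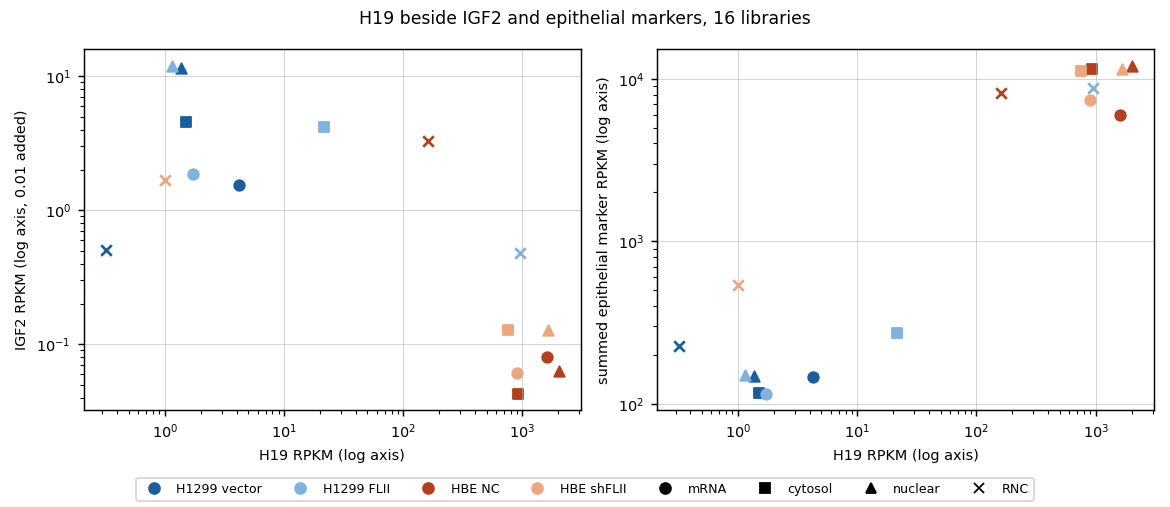
H19 level (RPKM, log axis) against IGF2 level (RPKM plus 0.01, log axis; left) and against the summed level of 25 epithelial markers (RPKM, log axis; right) in 16 libraries, coloured by group with the fraction as symbol. The 6 HBE libraries outside RNC lie at high H19 and low IGF2, the 6 H1299 libraries at the reverse, and no RNC library lies within the range of its labelled line in H19 or in IGF2.

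NEAT1 was the other member called higher in HBE NC than in H1299 vector in mRNA, cytosol and nuclear RNA, at 3.01 (2.87 to 3.15), 1.44 (1.03 to 1.87) and 1.16 (1.00 to 1.32). These are 2 of 10 members, against 13.9% of genes; none was called lower in all 3, against 13.1%. Total counts lowered the median of all genes by 0.24 to 0.46, and H19 was then the 1 member called in all 3. By fraction, 3, 4 and 2 members were higher, against 22.4%, 22.2% and 23.1% of genes, and 0, 2 and 2 lower, against 21.2%, 26.7% and 22.3%.

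MALAT1 differed between the lines in mRNA, at 3.49 (3.41 to 3.58), but its fractions were close, at −0.36 in cytosol and 0.15 in nuclear RNA. KCNQ1OT1 was lower in HBE NC in cytosol, at −1.44 (−1.87 to −1.04), and in nuclear RNA, at −1.11 (−1.29 to −0.93), with 0.48 in mRNA. PVT1 was higher in HBE NC cytosol at 1.60 (1.28 to 1.94), as was its neighbour MYC at 1.88 in cytosol and 2.14 in nuclear RNA. OIP5-AS1 was lower in cytosol, at −1.18 (−1.59 to −0.80), DLEU2 lower in nuclear RNA, at −1.56 (−2.98 to −0.43), and FTX higher in cytosol, at 1.03 (0.16 to 1.94). Other line-dependent long noncoding RNAs included UCA1 at 9.23 and MIR205HG at 8.93 in mRNA, both higher in HBE NC, and BCYRN1, which was lower at −3.46.

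H19 itself was spread over both compartments of HBE. Nuclear over cytosol was 0.58 (0.55 to 0.61) in HBE NC and 0.57 (0.54 to 0.60) in HBE shFLII, below the threshold with TMM and called under total counts at 1.12 and 1.13. In H1299 it was −0.44 (−1.33 to 0.40) in vector and −4.74 (−5.59 to −4.09) in H1299 FLII, from 17 nuclear and 313 cytosol reads.

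Raising or lowering FLII left most members below the threshold. Over the mRNA, cytosol and nuclear pairs of both lines, 59 member and pair combinations were tested and 2 were called, both H19 in H1299. In H1299 mRNA H19 fell by 1.27 on the log2 scale (−1.95 to −0.65), from 58 to 33 reads, where 0.468% of genes were lower and 0.330% higher. In H1299 cytosol it rose by 3.91 (3.41 to 4.51), from 32 to 313 reads, where 1.04% of genes were higher and 1.64% lower. In H1299 nuclear RNA the counts were 20 and 17 and the log2 fold was −0.29 (−1.32 to 0.71), with 0.407% of genes called higher and 0.192% lower. The 3 fractions of H1299 thus do not share a direction for H19.

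The cytosol library of H1299 FLII that holds this H19 also holds more epithelial marker RNA than vector cytosol, with summed levels of 274 and 116 RPKM. Of 25 markers, 24 had reads in both, PKP1 being at 0. From vector to H1299 FLII cytosol, KRT17 went from 2.95 to 45.6 RPKM and KRT5 from 0.469 to 10.1. CDH1 went from 0.0449 to 0.299 RPKM, from 2 and 9 reads. Single levels of the other markers are not given here. H19 in HBE cytosol stood at 755 to 926 RPKM. The part of these markers' source in the H19 value was not tested. Without that pair the only call over the other pairs was the fall in mRNA, and that one was not called on the deposited RPKM scale with 1 added, at −0.95. The H1299 mRNA pair differed in epithelial marker RNA too, with sums of 147 RPKM in vector and 115 in H1299 FLII. In that pair KRT17 was 13.7 and 4.04 RPKM and KRT5 1.68 and 0.572. CDH1 was close in both, at 0.314 and 0.274 RPKM from 9 and 11 reads. These are 3 of the 25 markers, and the others are given only as part of the sums. The part of the markers in the fall of H19 was not tested.

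In HBE no member was called with lowered FLII, against 2.02%, 0.625% and 0.550% of genes higher and 2.93%, 0.625% and 0.323% lower in mRNA, cytosol and nuclear RNA. In mRNA H19 went from 1598 to 898 RPKM, with a log2 fold of −0.96 (−0.99 to −0.93), and NEAT1 from 147 to 278 RPKM, with 0.79 (0.74 to 0.84). OIP5-AS1 went from 10.6 to 18.8 RPKM, with 0.69 (0.41 to 0.98). In nuclear RNA the same pair gave −0.32, 0.07 and −0.37. In cytosol the highest value among members tested was that of TUG1, at 0.71 (−0.08 to 1.56) from 21 and 39 reads. In H1299 mRNA the same RNAs, with FLII raised, gave −1.27, 0.43 and 0.31.

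The ratio of nuclear over cytosol changed with FLII for H19 in H1299 alone among the members. The change was −4.30 (−5.36 to −3.24), where 1.47% of genes were called lower and 2.84% higher, and it rests on the cytosol library described above. For MALAT1 the change was 0.02 (−0.24 to 0.27) in H1299 and 0.16 (−0.20 to 0.52) in HBE. For NEAT1 it was −0.57 (−1.06 to −0.09) and 0.24 (−0.16 to 0.64). In HBE 0 of 9 members were called, against 0.914% of genes higher and 0.607% lower.

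RNC RNA was pelleted through sucrose from a detergent lysate of cells held with cycloheximide, after debris had been spun out. NEAT1 and FTX were called higher in RNC than in cytosol in both control groups, 2 of 10 members, where 6.73% of 12543 genes were. None of the 10 was lower in both, against 3.12%. Without the pair labelled HBE NC, chosen after seeing the data because its RNC library lies outside the HBE range in mesenchymal markers, IGF2 and H19, 3 members were higher (NEAT1, FTX and JPX) and 0 lower. The kept RNC library, labelled H1299 vector, also lies outside the range of its line in these. Its mesenchymal sum was 131 against 709 to 2997, IGF2 was 0.499 RPKM against 1.53 to 11.9, and H19 was 0.322 against 1.14 to 21.7. By label, 3, 4, 5 and 5 members were higher, against 22.2%, 29.1%, 28.8% and 30.6% of genes, and 0, 1, 2 and 2 lower, against 18.1%, 22%, 15.3% and 22%.

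NEAT1 had 6.63, 8.40, 65.2 and 31.0 RPKM in the RNC libraries in label order, from 932 to 8338 reads. RNC over cytosol was 2.73 (2.42 to 3.06), 2.33 (1.99 to 2.69), 3.74 (3.47 to 4.02) and 2.93 (2.66 to 3.22). FTX had 4.59, 1.59, 3.97 and 4.39 RPKM, from 144 to 407 reads, with ratios of 3.39 (2.82 to 4.07), 0.96, 1.30 (0.70 to 1.99) and 1.84 (1.21 to 2.56). NEAT1 was thus higher under all 4 labels and FTX under 3. Both stayed higher in both control groups when scaled by total counts, with NEAT1 at 1.38 and 3.70 and FTX at 2.05 and 1.26.

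The other speckle and nuclear RNAs split by label. MALAT1 had 2.43, 2.27, 20.6 and 11.2 RPKM in RNC, with ratios over cytosol of 0.67, 0.10, 3.27 and 2.31. TUG1 had 0.434, 0.727, 2.85 and 1.81 RPKM, with −0.26, 0.25, 2.55 (1.93 to 3.26) and 1.26 (0.79 to 1.78). KCNQ1OT1 had 0.0940, 0.0697, 0.659 and 0.433 RPKM, with −0.77, −1.16 (−1.45 to −0.88), 2.64 (2.27 to 3.04) and 2.13 (1.78 to 2.52). All 3 were called higher under both HBE labels and under neither H1299 label. Both HBE labels belong to RNC libraries with more mesenchymal marker RNA than the other HBE libraries. Epithelial sums, 536 RPKM under HBE shFLII and 8716 under H1299 FLII, go against the labels, so this split cannot be read as one by line. Each ratio uses cytosol of the label. KCNQ1OT1, TUG1 and MALAT1 had 0.409, 1.32 and 3.89 RPKM in cytosol of H1299 vector, and 0.109, 0.50 and 2.19 in that of HBE NC. The part of these differences in the ratios was not tested.

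Scaling decides the side of 0 for several of the H1299 values. For the libraries labelled H1299 vector and H1299 FLII, total counts put the median of all genes at −1.38 and −0.82, which is 1.34 and 0.94 below the TMM value, with 60.6% and 44.1% of genes called lower and 4.97% and 14.7% higher. MALAT1 then had −0.68 and −0.85, TUG1 −1.60 and −0.69, and KCNQ1OT1 −2.12 and −2.10. Under the HBE labels the shift was 0.04 and 0.15 downward, with 27.6% and 27.3% called higher and 16.2% and 24.6% lower, and MALAT1 had 3.23 and 2.16. Of the 6 H1299 values, those of MALAT1 under both labels and of TUG1 under H1299 FLII changed sign, and the other 3 were below 0 under both scalings.

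**Figure D4:**
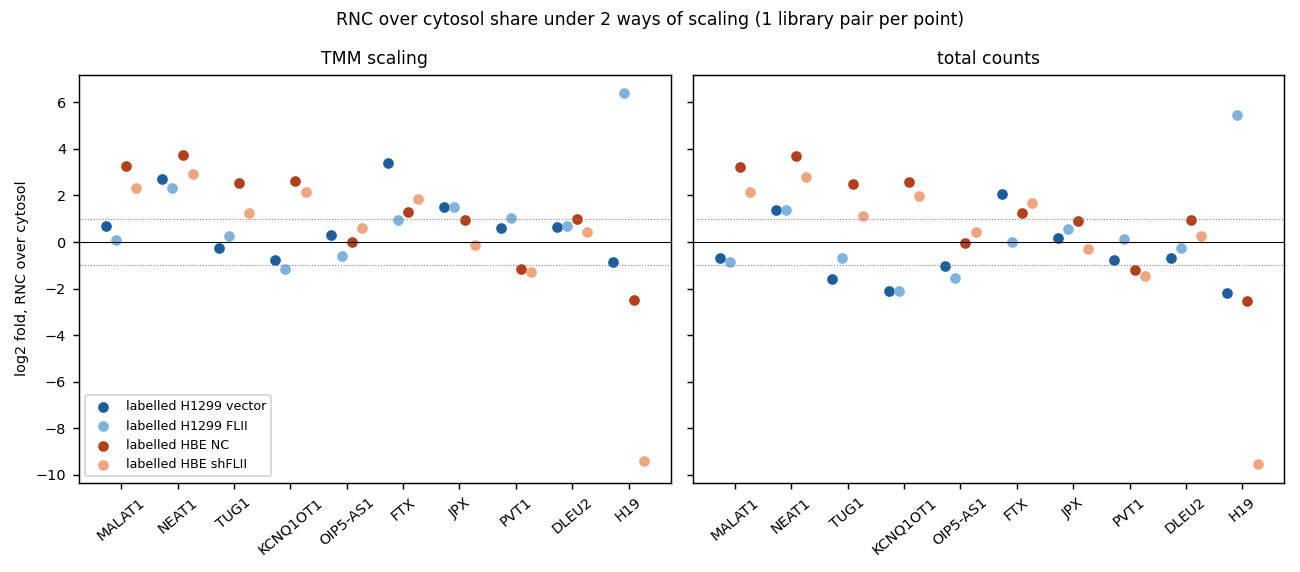
Log2 fold of RNC over cytosol for each RNA, with TMM scaling (left) and with total counts (right), coloured by the label of the RNC library; dotted lines mark a fold of 2. NEAT1 lies above 1 under all 4 labels and both scalings, and H19 spans from −9.38 to 6.40 with TMM.

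Long transcripts as a class followed the same split. Genes over 5 kb had median RNC over cytosol of −0.26 and −0.10 under the H1299 labels and of 1.09 and 0.73 under the HBE labels, where 49.8% and 41.2% of them were called higher. MALAT1, TUG1 and KCNQ1OT1 belong to that class; whether its shift accounts for theirs was not tested. Of 20 mRNAs for nuclear speckle proteins 0, 3, 9 and 6 were called higher in RNC and 6, 3, 2 and 3 lower. Against the shares of all genes given above, the higher calls were fewer under the H1299 labels, more under HBE NC and near the same under HBE shFLII.

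H19 in RNC lay outside the range of the labelled line each time. It had 0.322 RPKM in the library labelled H1299 vector, 952 in that labelled H1299 FLII, 160 in that labelled HBE NC and 1.01 in that labelled HBE shFLII. Over cytosol of the same label this is −0.85, 6.40 (6.24 to 6.56), −2.49 (−2.53 to −2.45) and −9.38 (−9.79 to −9.04). The library labelled H1299 FLII differed from cytosol of HBE NC by 0.53 (0.51 to 0.56), and that labelled HBE shFLII differed from cytosol of H1299 vector by 0.02 (−0.61 to 0.69). Neither was called.

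Between RNC libraries of a line, as labelled, 1 member was called higher and 2 lower for H1299 FLII over vector, where 26.1% of genes were higher and 23% lower. These were H19 at 11.29 (10.78 to 11.90), FTX at −1.75 (−2.03 to −1.47) and OIP5-AS1 at −1.19. For HBE shFLII over NC, OIP5-AS1 was higher at 1.08 (0.88 to 1.28) and H19 lower at −6.95 (−7.35 to −6.60), where 18.9% of genes were higher and 11.7% lower. Marker sums differ between the libraries of both pairs as given above, and their part in these values was not tested.

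PVT1 had 5.07, 10.9, 8.13 and 7.32 RPKM in RNC, higher than cytosol under the label H1299 FLII, at 1.05 (0.76 to 1.36), and lower under both HBE labels, at −1.17 (−1.42 to −0.92) and −1.29 (−1.54 to −1.04). JPX had 3.68, 4.59, 7.34 and 3.92 RPKM, with 1.50 (1.06 to 1.97) and 1.52 (0.99 to 2.10) under the H1299 labels, called, and 0.94 and −0.15 under the HBE labels. Under total counts the JPX values in H1299 were 0.16 and 0.58 and were not called. OIP5-AS1, at 9.14, 4.65, 5.75 and 9.51 RPKM, and DLEU2, from 26 to 49 reads, were called under no label.

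Set against the mRNA library in place of cytosol, FTX, JPX and PVT1 were higher in RNC in both control groups, as were 17.7% of genes, and TUG1 and H19 were lower, as were 9.82%. FTX was at 4.00 (3.35 to 4.80) and 3.71 (2.89 to 4.76), JPX at 2.84 and 2.23, and PVT1 at 1.56 and 1.06. NEAT1 was at 0.47 and −0.24 and MALAT1 at −0.97 and −2.39, so the choice of denominator turns the order of these RNAs. Genes under 2 kb, such as JPX and PVT1, had medians of 1.67 and 0.95 here.

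Over the 12 libraries outside RNC, the genes whose log2(CPM + 1) followed each RNA most closely were found by Pearson's r among 12252 genes, as a description of libraries that share 2 lines and 3 fractions. H19 was closest to CLDN7, an epithelial tight junction gene, with r of 0.998. MALAT1 was closest to LIPA, a lysosomal lipase, at 0.989, NEAT1 to SYNE2, a nuclear envelope protein, at 0.990, TUG1 to DNAJC13 at 0.996 and KCNQ1OT1 to RSF1, a chromatin remodeller, at 0.993. Values were lower for PVT1 with MRPS34 at 0.965, DLEU2 with ZNF92 at 0.936, OIP5-AS1 with CUL5 at 0.935, and FTX with CSNK2B at 0.845.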

How the data were processed

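The deposited files list 23709 genes with a stated length, an unnormalized count of reads and an RPKM value, per the file headers; the authors' read counts are whole numbers, and the deposited RPKM is the count scaled to length and library total. The submitters' processing notes name GRCh37 (hg19) as build. The aligner, the counter and how nucleus and cytosol were separated: not given in the sources used here. Libraries were made with a NEBNext mRNA kit, per the labels' protocols. Groups came from the titles.

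Each pair of libraries was scaled with TMM (edgeR 4.0.16, R 4.3.3), counts got 0.5 reads more after scaling, and a gene was tested from 20 reads summed over the pair. Antisense and overlapping partners cannot be told apart, as no strand is stated. The interval of a change of ratio came from inverse counts. On simulated data with known changes, over 20 pairs, 98% to 100% of changed genes were called and at most 0.708% of unchanged genes. Alternatives were total counts, DESeq2 1.42.0 size factors, 1 or 100 summed reads, 5 reads added, RPKM with 1 added, and other denominators.

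The members, the gene lists and markers, and the rule for named genes (all 10 members, every level of those called most, up to 4 called genes of each list by the interval bound nearest 0, and the closest gene by correlation) were chosen with earlier results of these data known. The closest gene to JPX is not reported here.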

Additional observations from a re-analysis of the deposited data

Results flagged for a closer look

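OIP5-AS1 and H19 were called in opposite directions in the RNC pairs of the 2 lines. By label FLII was raised in H1299 and lowered in HBE, so opposite signs are not by themselves a difference between lines. FLII itself had log2 folds of −4.21 and 0.07 in these RNC pairs, H1299 before HBE. The difference between lines was not tested. For OIP5-AS1 the log2 fold was −1.19 for the RNC library labelled H1299 FLII over that labelled H1299 vector, and 1.08 for that labelled HBE shFLII over that labelled HBE NC. For H19 the same pairs gave 11.29 and −6.95. Both pairs hold a library whose epithelial marker sum goes against its label (8716 RPKM under the label H1299 FLII and 536 under HBE shFLII), and no RNC library has a mesenchymal marker sum within the range of its labelled line. No group has enough libraries for a check on single libraries that stand apart from their group.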

How the results depend on the processing

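No paired analysis was possible because each group has 1 library and the labels give no replicate numbers. With the mRNA library as denominator, 0 members were higher in nuclear RNA of all 4 groups, in place of 3, and 1 was lower, in place of 0. In single groups 14.4% to 18.2% of genes were higher in nuclear RNA than in mRNA and 17.7% to 19.7% lower. For RNC over mRNA in both control groups, 2 members were lower in place of 0, against 9.82% of genes. With total counts 1 member was lower in RNC over cytosol of both control groups. In the single pairs 60.6% of genes were then lower under the label H1299 vector and 16.2% under HBE NC. With the same scaling 1 member was higher in HBE NC over H1299 vector in all 3 fractions, in place of 2. On the RPKM scale that count was 1, members higher in RNC of both control groups numbered 1 in place of 2, and calls lower with FLII 0 in place of 1. With at least 100 summed reads the calls lower with FLII, and those of the nuclear over cytosol change, were 0 in place of 1, since fewer reads than that support them. Chosen after seeing the data, leaving out the H1299 cytosol pair gave 0 higher calls with FLII in place of 1, and adding the RNC pairs as labelled gave 3 higher and 4 lower. Elsewhere the cause was not tested. Of 72 calls of single members, 58 held under total counts, 72 under DESeq2 size factors, 71 with 5 reads added and 43 of 65 on the RPKM scale, and none changed sign. Depth limits FTX and DLEU2 most, at 4 to 31 reads per library outside RNC.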
